A study of Mus musculus with 7 samples.

Results

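The 10 genes described here encode Polycomb repressive complex 2 (PRC2) and its partner proteins: Ezh1, Ezh2, Eed, Suz12, Rbbp4, Rbbp7, Jarid2, Aebp2, Mtf2 and Phf19. They were chosen by symbol, and all 10 were found among the 34305 rows of the deposited table and among the 14808 genes tested. Messenger RNA was sequenced in 7 libraries of mouse haematopoietic stem and progenitor cells (HSPCs), a mixed population of blood-forming cells. The group MN1 (3 libraries) overexpressed MN1, a transcriptional co-regulator and leukaemia oncogene, MN1pQdel (3 libraries) overexpressed MN1 without its polyglutamine stretch, and noTD (1 library) was untransduced. Transduced cells were sorted, and per the labels' protocols RNA was taken after 7 to 9 days of culture in serum-containing medium with IL-3, IL-6 (10 ng/mL) and stem cell factor (20 ng/mL). The mouse strain and age, the number of animals and the promoter of the plasmid are unstated in the labels. The 3 libraries of a group are called independent by the submitters, but nothing says that they came from separate animals, so p-values measure the spread between these libraries. The noTD library carries the same source label as the transduced ones, and its title and its overexpression label, none, place it in its own group.

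Library totals ran from 38210660 to 67728658 counts per library, and every member had at least 545 counts in every library. The estimated counts were not whole in 7 of 7 libraries for Ezh2 and Rbbp4, in 6 for Eed, Rbbp7 and Mtf2 and in 5 for Ezh1, as happens when reads are shared with other rows, so the levels of these 6 genes and the ratios made from them are uncertain to that extent. Mn1 stood at 287 to 314 CPM (counts scaled to library size with TMM factors) in MN1, at 404 to 728 CPM in MN1pQdel and at 33.6 CPM in noTD. The transduced groups thus differed in the level read from the Mn1 row as well as in the stretch. How fully this row counts the introduced MN1 was not tested. The pan-leukocyte gene Ptprc and the progenitor genes Kit and Cd34 were present in every library (Cd34 at 527 to 650 CPM in MN1 and 160 to 261 CPM in MN1pQdel), beside markers of maturing cells. Kit went the other way without passing (237 to 431 CPM in MN1, 248 to 875 CPM in MN1pQdel), as did Gata2 (log2 fold change of MN1 over MN1pQdel -0.96). Ptprc was lower in MN1 (-1.38, edgeR adjusted p = 0.0104). The level summed over 9 stem and progenitor genes, these included, overlapped between the groups. It was 2364 to 2930 CPM in MN1, 1751 to 3067 CPM in MN1pQdel and 2892 CPM in noTD. The sum gives most weight to abundant genes such as Gata2. Of the 9 genes, 3 were called higher in MN1 and 1 (Ptprc) lower, where 6.08% and 11.1% of all genes tested were called. The 3 were Cd34, Flt3 (64.4 to 111 CPM in MN1, 0.25 to 7.00 CPM in MN1pQdel) and Adgrg1 (525 to 574 and 154 to 233 CPM). In all, 5 of the 9 log2 fold changes were positive. Summed over 9 neutrophil genes, the level was 875 to 1880 CPM in MN1, 11920 to 17450 CPM in MN1pQdel and 18210 CPM in noTD. For 6 eosinophil genes it was 12.3 to 19.3 CPM, 232 to 3546 CPM and 3715 CPM in the same order, and for 7 mast cell genes 989 to 2705, 1907 to 15860 and 13770 CPM. MN1pQdel replicate 2 stood apart from its group, with the lowest of these eosinophil and mast cell sums among the MN1pQdel libraries. In bulk RNA, fewer cells of a type and less RNA per cell cannot be told apart, and the part of this difference in cell composition in the results below was not tested.

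PRC2 places methyl groups on lysine K27 of histone H3, a mark of silenced genes. EZH2 or its paralogue EZH1 carries the catalytic SET domain, EED reads the mark and stimulates the enzyme, SUZ12 is the scaffold, and RBBP4 or RBBP7 binds histones. Partner proteins define 2 forms of the complex: MTF2, PHF19 or PHF1 (the Polycomb-like proteins) in PRC2.1, and JARID2 with AEBP2 in PRC2.2. In blood, EZH2 predominates in dividing progenitors and EZH1 in stem cells and in resting or mature cells.

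Ezh1 and Phf19 fell in MN1 relative to MN1pQdel, each by 0.64 on the log2 scale, and no member passed the test as higher. The other 8 members did not pass, although Ezh2, Rbbp4, Rbbp7 and Mtf2 stood higher in each MN1 library than in any MN1pQdel library. With edgeR's quasi-likelihood test and a Benjamini-Hochberg threshold of 0.05, 0 of 10 members were higher and 2 lower, where 6.08% and 11.1% of all genes tested were called. In either direction 2 of 10 were called against 17.2% of all genes, a share near the background. DESeq2 called 2 members higher and 2 lower, where it called 1906 and 2445 of all 14808 genes tested. At an unadjusted p under 0.05, 4 members were higher and 2 lower. The share of all genes at that unadjusted p was not counted, so no enrichment is read from such counts here or in the lists below. The median log2 fold change of the members was 0.23, against -0.01 over all genes tested, and 7 of 10 were positive, against 7303 of 14808. With the replicate number as a block, 3 members were higher and 2 lower, where 13.7% and 17.0% of all genes were called (30.7% in either direction). The groups did not overlap for 6 members, 4 higher and 2 lower, against 21.9% and 21.7% of all genes (43.6% in either direction).

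**Figure D1:**
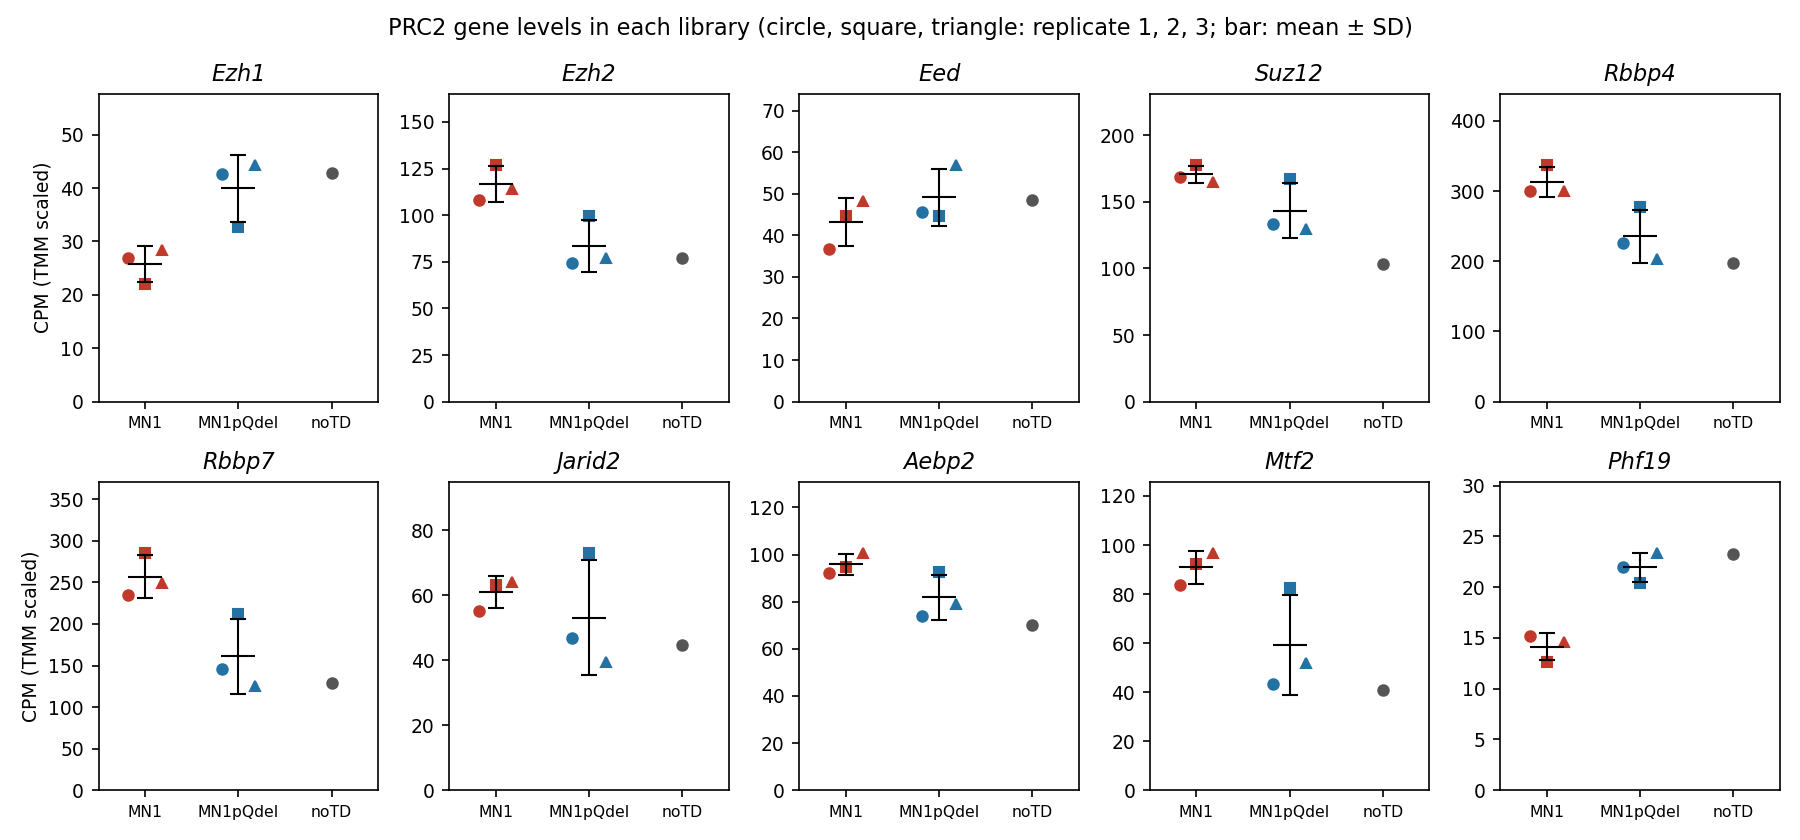
Level of each of the 10 PRC2 genes in each library, in TMM-scaled CPM on axes that start at 0, for MN1, MN1pQdel (3 libraries each, with mean ± SD) and noTD (1 library). Ezh1 and Phf19 sit lower in all MN1 libraries, Ezh2, Rbbp4, Rbbp7 and Mtf2 sit higher in all of them, and MN1pQdel replicate 2 (square) lies nearest to MN1 in its group for all 10 genes.

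Ezh1 (ENSMUSG00000006920, chromosome 11, 101191115 to 101226463, minus strand, GRCm38) encodes the less active of the paired methyltransferases. It stood at 26.97, 22.04 and 28.3 CPM in MN1 replicates 1 to 3, at 42.7, 32.7 and 44.4 CPM in MN1pQdel and at 42.9 CPM in noTD. All MN1 libraries lay below all MN1pQdel libraries, and noTD lay between MN1pQdel replicates 1 and 3. The means were 25.8 ± 3.32 and 39.9 ± 6.31 CPM (SD, n = 3 each), and edgeR put the log2 change at -0.64 (SE 0.17) with a Benjamini-Hochberg adjusted p = 0.0469. The call was lost when any library other than MN1pQdel replicate 2 was left out (log2 fold changes -0.70 to -0.54, adjusted p = 0.109 to 0.159), with no filter on low counts (adjusted p = 0.0576) and with library totals in place of TMM (adjusted p = 0.0937).

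Ezh2 (ENSMUSG00000029687, chromosome 6, 47530139 to 47595341, minus strand) encodes the main methyltransferase of dividing cells. Its level was 108, 127 and 114 CPM in MN1, 74.3, 99.4 and 76.9 CPM in MN1pQdel and 76.9 CPM in noTD. MN1pQdel replicates 1 and 3 were close to noTD, and replicate 2 lay between them and MN1. The means of 117 ± 9.62 and 83.6 ± 13.8 CPM (SD, n = 3 each) gave a log2 change of 0.47 (SE 0.14), which did not pass (edgeR, adjusted p = 0.0617). With the replicate block Ezh2 was called higher, at 0.48 (SE 0.08, adjusted p = 0.0181), and without MN1pQdel replicate 2 at 0.63 (adjusted p = 0.00513). It did not pass when any other single library was left out (edgeR adjusted p = 0.129 to 0.192).

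EZH1 and EZH2 take the same place in the complex, and the ratio of their RNAs was compared library by library. The ratio was set for comparison with earlier results of these data known, so its p is a description of these libraries. Log2 of Ezh2 over Ezh1 was 2.00, 2.53 and 2.01 in MN1, 0.80, 1.60 and 0.79 in MN1pQdel and 0.84 in noTD. As a plain ratio of CPM it was 4.01, 5.77 and 4.03 in MN1 against 1.74, 3.04 and 1.73 in MN1pQdel and 1.80 in noTD. Every MN1 library lay above every MN1pQdel library, and MN1pQdel replicates 1 and 3 lay beside noTD. The difference of the group means was 1.11 on the log2 scale (exact two-sided permutation test p = 0.1, the smallest that 3 against 3 libraries can give). Within replicate numbers 1, 2 and 3 the differences were 1.20, 0.92 and 1.22. Ezh2 also exceeded Ezh1 per length of transcript in every library, by 7.04 to 10.1 times in MN1, 3.04 to 5.33 times in MN1pQdel and 3.15 times in noTD, with the median length of annotated coding transcripts. With the union of exons these ratios were lower, at 4.47 to 6.42, 1.93 to 3.39 and 2.00 times.

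**Figure D2:**
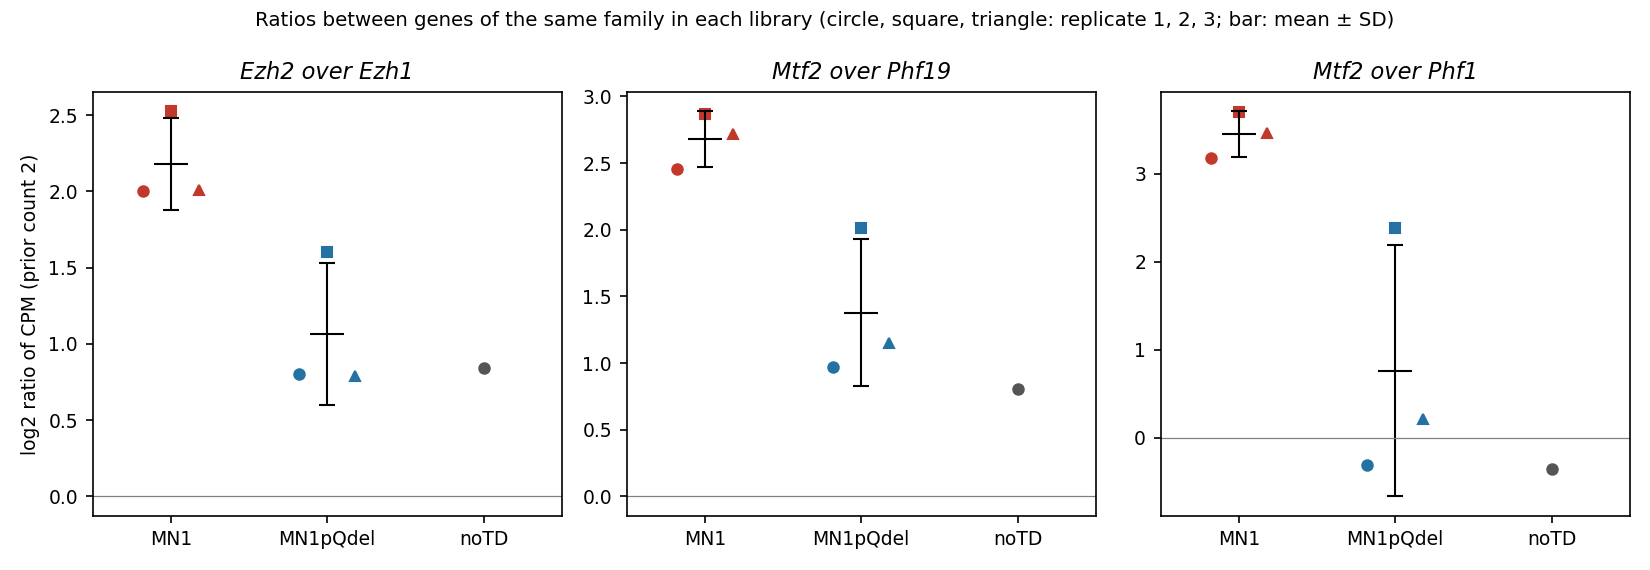
Log2 ratio of CPM (prior count of 2) between genes that encode alternative subunits, in each library of MN1, MN1pQdel and noTD, with mean ± SD over 3 libraries. Ezh2 over Ezh1, Mtf2 over Phf19 and Mtf2 over Phf1 lie higher in all MN1 libraries than in all MN1pQdel libraries, and MN1pQdel replicate 2 is the highest of its group in each.

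The start regions of the genes were searched for 8-base words of the E2F type, TTTCCCGC, TTTGGCGC, TTTCGCGC and TTTGCCGC, on both strands, since E2F factors are textbook regulators of Ezh2 and Eed in dividing cells. RefSeq (GRCm38.p6) gave 14 windows of 300 bases for the 10 members, 250 bases before and 50 after a start site. A word was found in 3 of the 14, those of Ezh2, Suz12 and Phf19, against 2.26% of all 32851 windows and 4.95% of the 10320 windows with at least 17 CpG dinucleotides, the lowest number in the CpG-richest window of any member. Neither set matches the members in CpG. The 14 include windows of Aebp2 (4 CpG each) and Mtf2 (2 CpG) that the second set leaves out. The windows with a word held 31 (Ezh2), 41 (Suz12) and 38 (Phf19). The stretches around the words are shown so that members that differed in direction can be compared, together with the same positions of Ezh1, whose window held no word. Capitals mark the word, all run from 5′ to 3′ on the strand of the gene, and distances count from the RefSeq start site.
Ezh2, chr6:47595009-47595038, minus strand, -8 to 21: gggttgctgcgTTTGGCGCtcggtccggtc
Ezh1, chr11:101226442-101226471, minus strand, -8 to 21: gcgtggccgcggcgcaggggcgtggccgta
Suz12, chr11:79992876-79992905, plus strand, -230 to -201: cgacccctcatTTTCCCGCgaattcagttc
Phf19, chr2:34914166-34914195, minus strand, -219 to -190: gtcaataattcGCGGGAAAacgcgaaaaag
The word of Phf19 lies on the opposite strand, so its reverse complement is in capitals. Of the 3 members with a word, Ezh2 and Suz12 had positive values between MN1 and MN1pQdel and Phf19 fell.

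Among the other core subunits, Rbbp4 and Rbbp7 stood higher in MN1 and Suz12 and Eed overlapped between the groups. Rbbp7 (ENSMUSG00000031353, chromosome X, 162760402 to 162779092, plus strand), which encodes one of a pair of alternative histone-binding subunits, was at 235, 285 and 250 CPM in MN1, 145, 212 and 126 CPM in MN1pQdel and 129 CPM in noTD. The MN1 libraries lay above all others, and edgeR gave a log2 change of 0.66 (SE 0.20, adjusted p = 0.0646). It was called with the block (0.69, adjusted p = 0.0222) and by DESeq2 (0.67, adjusted p = 0.0203). Its paralogue Rbbp4 (ENSMUSG00000057236, chromosome 4, 129307100 to 129335370, minus strand) was at 300, 338 and 301 CPM in MN1, 226, 277 and 203 CPM in MN1pQdel and 197 CPM in noTD. It separated the groups in the same way, at 0.40 (SE 0.14, adjusted p = 0.0883; with the block 0.41, adjusted p = 0.0308). RBBP4 and RBBP7 also serve other complexes, so their RNA does not measure PRC2 alone. 

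Suz12 (ENSMUSG00000017548, chromosome 11, 79993106 to 80034123, plus strand), the scaffold gene, stood at 169, 178 and 165 CPM in MN1, 133, 167 and 130 CPM in MN1pQdel and 104 CPM in noTD. MN1pQdel replicate 2 lay inside the MN1 range, and all 6 transduced libraries exceeded noTD, as they did for Rbbp4, Mtf2 and Aebp2. The log2 change of Suz12 was 0.24 (SE 0.12, edgeR adjusted p = 0.200). Eed (ENSMUSG00000030619, chromosome 7, 89954654 to 89980983, minus strand), whose product binds the finished mark, was at 36.8, 44.6 and 48.2 CPM in MN1, 45.7, 44.8 and 57.0 CPM in MN1pQdel and 48.6 CPM in noTD. The groups overlapped, and the fold change of -0.20 (SE 0.16, adjusted p = 0.377) turned to 0.01 with library totals. Without MN1pQdel replicate 2 Suz12 was called (0.38, adjusted p = 0.0166) and Eed was not (-0.24, adjusted p = 0.257). Suz12 did not pass when any other single library was left out (edgeR adjusted p = 0.277 to 0.432).

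**Figure D3:**
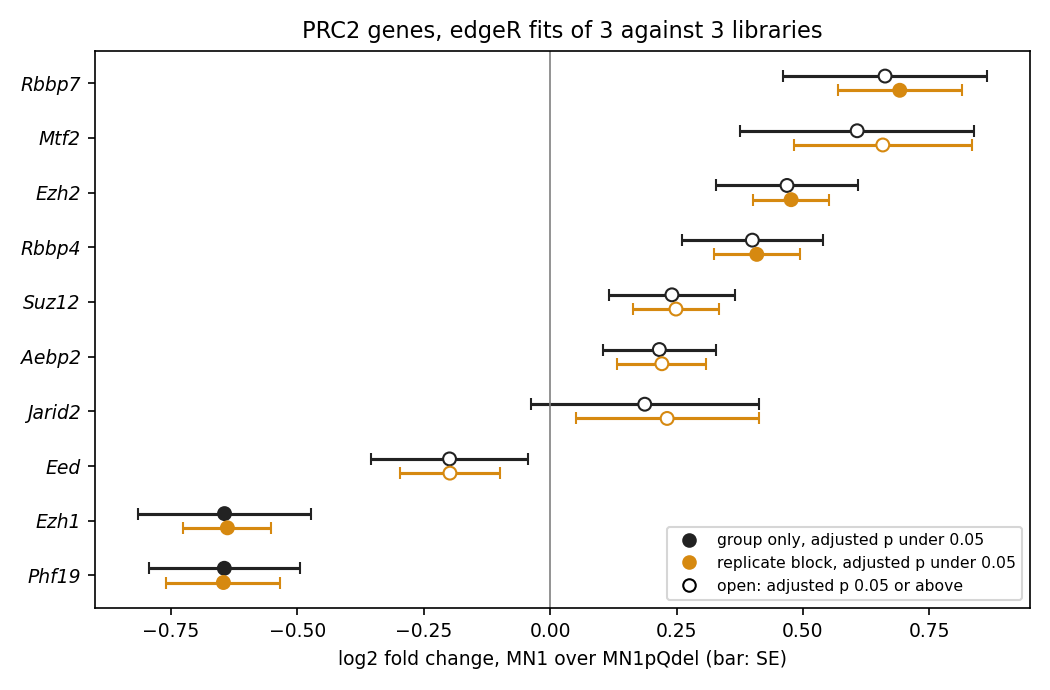
Log2 fold change of MN1 over MN1pQdel with its standard error for the 10 members, from the edgeR fit with group only (black) and with the replicate number as a block (orange). Filled points have an adjusted p under 0.05: Ezh1 and Phf19 in both fits, and Ezh2, Rbbp4 and Rbbp7 only with the block.

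Of the Polycomb-like genes of PRC2.1, Phf19 fell and Mtf2 did not pass. Phf19 (ENSMUSG00000026873, chromosome 2, 34893757 to 34914026, minus strand) stood at 15.2, 12.6 and 14.6 CPM in MN1, 22.0, 20.4 and 23.4 CPM in MN1pQdel and 23.2 CPM in noTD. The groups were far apart relative to their spread, with means of 14.2 ± 1.36 and 21.9 ± 1.47 CPM (SD, n = 3 each). It fell by 0.64 on the log2 scale (SE 0.15, edgeR adjusted p = 0.0325). The call was lost when any library other than MN1pQdel replicate 2 was left out (adjusted p = 0.0939 to 0.119), with no filter (adjusted p = 0.0524) and with library totals (adjusted p = 0.0783). Mtf2 (ENSMUSG00000029267, chromosome 5, 108065674 to 108109004, plus strand) stood at 83.6, 92.3 and 96.7 CPM in MN1, 43.3, 82.4 and 52.0 CPM in MN1pQdel and 40.7 CPM in noTD. MN1pQdel replicate 2 lay just under the lowest MN1 library, and the other libraries of its group lay far below. Its log2 fold change was 0.61 (SE 0.23, adjusted p = 0.107), and 0.94 without MN1pQdel replicate 2 (adjusted p = 0.00251). Mtf2 did not pass when any other single library was left out (edgeR adjusted p = 0.1845 to 0.2652).

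Phf1, the other Polycomb-like gene, was outside the list of 10 and fell further than any member. It stood at 9.17, 7.04 and 8.74 CPM in MN1, 53.7, 15.7 and 44.7 CPM in MN1pQdel and 52.2 CPM in noTD. MN1pQdel replicate 2 lay well below the rest of its group and above all MN1 libraries. Phf1 fell by 2.21 on the log2 scale in MN1 (SE 0.44, edgeR adjusted p = 0.0226), and its call was lost when any library other than MN1pQdel replicate 2 was left out (adjusted p = 0.0625 to 0.0917). Log2 of Mtf2 over Phf19 ran from 2.46 to 2.87 in MN1 and from 0.97 to 2.01 in MN1pQdel, with 0.81 in noTD, and log2 of Mtf2 over Phf1 from 3.18 to 3.71 and from -0.31 to 2.39, with -0.36 in noTD. These ratios were chosen after their values were seen and were not tested. The remaining 5 tested partners outside the list (Epop, Lcor, Lcorl, Elob and Eloc) did not pass. The list had 0 higher and 1 lower gene of 6 (1 and 1 by unadjusted p under 0.05 and by DESeq2) and a median log2 fold change of 0.04.

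The genes of PRC2.2 did not pass the test. Jarid2 (ENSMUSG00000038518, chromosome 13, 44729474 to 44921643, plus strand), which helps recruit PRC2 to chromatin, was at 55.2, 63.3 and 64.1 CPM in MN1, 46.8, 73.0 and 39.4 CPM in MN1pQdel and 44.5 CPM in noTD. MN1pQdel replicate 2 was the highest of all 7 libraries. The log2 change was 0.19 (SE 0.23, edgeR adjusted p = 0.570). With single libraries left out it ran from 0.02 without MN1pQdel replicate 3 (adjusted p = 0.965) to 0.50 without MN1pQdel replicate 2 (adjusted p = 0.0227). Aebp2 (ENSMUSG00000030232, chromosome 6, 140622663 to 140678472, plus strand), a zinc finger partner that stabilises the complex, stood at 92.2, 94.7 and 101 CPM in MN1, 74.0, 92.4 and 79.1 CPM in MN1pQdel and 70.0 CPM in noTD. The groups touched at MN1pQdel replicate 2, and the fold change was 0.22 (SE 0.11, adjusted p = 0.199), or 0.33 without replicate 2 (adjusted p = 0.0312). Aebp2 did not pass when any other single library was left out (edgeR adjusted p = 0.299 to 0.444).

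MN1pQdel replicate 2 was thus the MN1pQdel library nearest to the MN1 mean for all 10 members, where this held for 62.8% of all genes tested, and it lay inside the MN1 range for 3 of 10 (Eed, Suz12 and Aebp2), against 36.6% of all genes. Without it 7 of 10 members were higher, among them Rbbp7 by 0.92 and Rbbp4 by 0.55 on the log2 scale, and 2 of 10 were lower. Each of these calls was made in 1 of 6 fits with a single library left out, the fit without MN1pQdel replicate 2. Of the 15252 genes tested in that fit, 3146 were called higher and 3248 lower. That library also had the lowest eosinophil and mast cell sums of its group, and its replication and mitosis sum was the highest, at 6791 CPM against 4973 and 4776 CPM. The part of these differences in the member values was not tested.

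Against the single noTD library, given as a description with no test run, the MN1 mean lay farther from noTD than the MN1pQdel mean did for each of the 10 members. The share of all genes with this order was not counted. Over all genes tested, too, MN1 lay past 2-fold from noTD more often than MN1pQdel, so the order is not read as particular to the members. Mtf2 was the member past 2-fold, higher in MN1 by 1.15 on the log2 scale, and Rbbp7 lay just under this size at 0.98. Past 2-fold, 1 member was higher and 0 lower in MN1, where 10.8% and 14.9% of all genes tested were, and 0 and 0 in MN1pQdel, where 1.56% and 3.08% were. The MN1 differences of the others were 0.72 for Suz12, 0.67 for Rbbp4, 0.60 for Ezh2, 0.45 for Jarid2 and Aebp2, -0.18 for Eed, -0.72 for Phf19 and -0.74 for Ezh1. For MN1pQdel they ran from -0.11 (Ezh1) to 0.48 (Mtf2), with Suz12 at 0.46, and both sets share the same noTD library. Leaving MN1 replicate 1 or 3 out of the mean, or using library totals, brought the number past 2-fold to 2.

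Per kilobase of transcript in MN1, Rbbp7 and Rbbp4 had the highest levels of the 10 members and Ezh1 and Phf19 the lowest. This order is given for MN1 alone: in noTD with the longest transcript Jarid2 lay lowest (5.33 CPM per kilobase, against 6.21 for Phf19), and in MN1pQdel with the union of exons Suz12 (29.0) lay above Rbbp4 (26.9). With the median length of annotated coding transcripts, Rbbp7 had 180 ± 18.1 and Rbbp4 130 ± 8.94 CPM per kilobase in MN1 (SD, n = 3 each), and Phf19 6.92 ± 0.663 and Ezh1 6.15 ± 0.791. Rbbp7, Rbbp4 and Jarid2 kept ranks 1, 2 and 8 in MN1 with the longest transcript and with the union of exons, and Ezh1 and Phf19 held the last ranks in either order. With the median length, Suz12, Eed and Aebp2 followed one another at 39.3 ± 1.53, 38.9 ± 5.25 and 37.6 ± 1.69, and the libraries of neighbours in this order overlapped, as did those of Phf19 and Ezh1. The means of Suz12, Eed and Aebp2 were 39.03, 20.9 and 16.15 with the longest transcript and 34.51, 11.28 and 9.725 with the union of exons. Their closeness thus held with the median length alone. The place of Mtf2 depended on the length used (rank 3 with the median of 778 bases, rank 5 with the longest transcript of 4060 bases), so no order is read from it.

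The wider Polycomb system is given by its counts, beside 6.08% higher and 11.1% lower over all genes tested (by DESeq2, 1906 higher and 2445 lower of 14808). Of 25 tested genes of PRC1, the complex that marks histone H2A with ubiquitin and binds the PRC2 mark, 1 was higher and 0 lower (7 and 1 by unadjusted p under 0.05, 5 and 0 by DESeq2), with a median log2 fold change of 0.05. The one was Pcgf6, a subunit of a variant PRC1, at 17.7, 21.6 and 18.3 CPM in MN1, 8.59, 13.3 and 8.92 CPM in MN1pQdel and 7.95 CPM in noTD. It rose by 0.90 on the log2 scale (SE 0.22, edgeR adjusted p = 0.0367). Bmi1, a canonical PRC1 subunit needed for stem cell renewal, was at 44.7, 66.6 and 58.7 CPM in MN1 and 39.7, 41.8 and 41.1 CPM in MN1pQdel, and did not pass (0.46, adjusted p = 0.0860). With the block 6 of 25 PRC1 genes were higher and 1 lower, where 13.7% and 17.0% of all genes were.

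The enzymes that remove the PRC2 mark did not pass. Kdm6a (UTX) had 92.6 ± 4.62 CPM in MN1 against 97.2 ± 6.68 CPM in MN1pQdel (SD, n = 3 each; log2 fold change -0.08, turning to 0.12 with library totals), and Kdm6b (JMJD3) at 81.3 ± 2.64 and 95.5 ± 14.7 CPM (-0.25, edgeR adjusted p = 0.228). In the list of 13 tested demethylases and genes of the deubiquitinase complex PR-DUB, 0 were higher and 1 lower (1 and 2 by unadjusted p under 0.05, 1 and 1 by DESeq2), with a median of -0.13. Mbd6, a PR-DUB partner, fell from 103 ± 17.01 to 66.7 ± 4.99 CPM (SD, n = 3 each; -0.64, SE 0.15, adjusted p = 0.0330), and no longer passed with library totals (adjusted p = 0.0531). Kdm6b passed without MN1pQdel replicate 2 (-0.35, adjusted p = 0.0227).

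**Figure D4:**
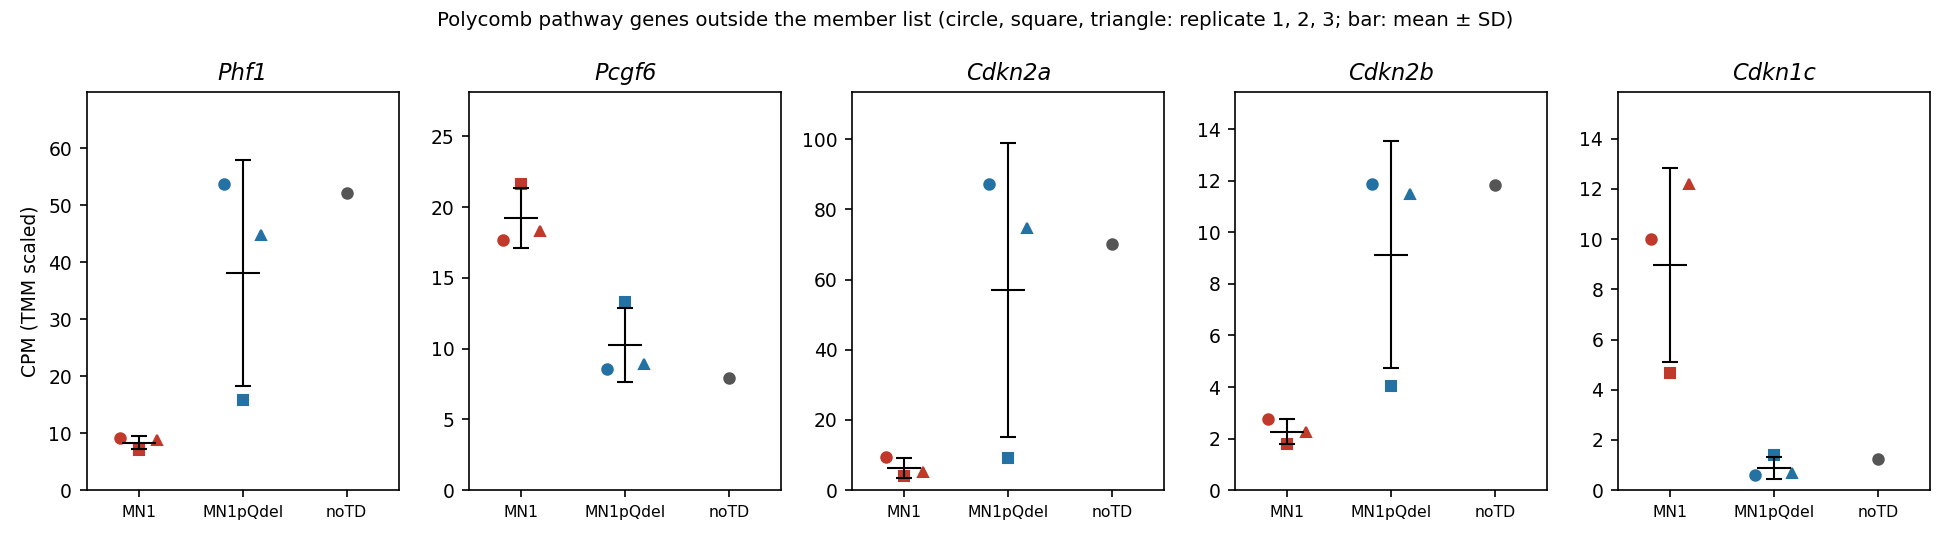
Levels of 5 genes of the wider Polycomb system in each library, in TMM-scaled CPM on axes that start at 0, with mean ± SD over 3 libraries for MN1 and MN1pQdel. Phf1, Cdkn2a and Cdkn2b are low and Pcgf6 and Cdkn1c high in MN1, and MN1pQdel replicate 2 (square) lies nearest to the MN1 libraries in each.

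RBBP4 and RBBP7 are also subunits of NuRD, SIN3, CAF-1 and the HAT1 complex, and 1 of 20 tested genes of these complexes was higher and 1 lower (6 and 2 by unadjusted p under 0.05, 3 and 1 by DESeq2), with a median of 0.16. Mta1, a NuRD gene, rose from 90.7 ± 24.8 to 189 ± 25.5 CPM (1.05, SE 0.21, edgeR adjusted p = 0.0223), and Mbd2, a NuRD gene whose product binds methylated DNA, fell from 143 ± 16.2 to 99.7 ± 2.55 CPM (-0.53, SE 0.11, adjusted p = 0.0274; SD, n = 3 each). Mbd2 no longer passed with library totals (adjusted p = 0.0601). With the block 6 of 20 were higher and 2 lower, against the same 13.7% and 17.0% of all genes.

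The 30 replication and mitosis genes, tested because EZH2 is linked to cell division, had 0 calls in the group-only fit (4 higher and 0 lower by unadjusted p under 0.05, 1 and 0 by DESeq2), with 27 of 30 log2 fold changes positive (7303 of 14808 over all genes tested) and a median of 0.19. Their summed level was 6127 to 6972 CPM in MN1, 4776 to 6791 CPM in MN1pQdel and 4639 CPM in noTD. Mki67, the most abundant of them, stood at 608, 578 and 617 CPM in MN1 and at 624, 830 and 733 CPM in MN1pQdel, and did not pass (-0.29, edgeR adjusted p = 0.151). With the block 9 of these 30 genes were higher, where 13.7% of all genes were. Without MN1pQdel replicate 2 the number was 19, where 3146 of 15252 genes tested were higher.

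Of 36 textbook Polycomb targets outside the HOXA cluster, 6 had enough counts to be tested, which could depend on 1 group being high. Of these 6, 1 was higher and 2 lower, where 6.08% and 11.1% of all genes tested were called. The numbers were also 1 and 2 by unadjusted p under 0.05 and by DESeq2. The median log2 fold change was -0.76, with 1 of 6 positive (Cdkn1c). Cdkn2a, whose products restrain the cell cycle and act upstream of RB and p53, stood at 9.39, 4.05 and 5.20 CPM in MN1, 87.2, 9.25 and 74.7 CPM in MN1pQdel and 70.0 CPM in noTD. MN1pQdel replicate 2 lay inside the MN1 range. Cdkn2a fell by 3.21 on the log2 scale (SE 0.81, edgeR adjusted p = 0.0407). Its neighbour Cdkn2b fell by 2.03 (SE 0.45, adjusted p = 0.0295), from 11.9, 4.05 and 11.5 CPM in MN1pQdel to 2.76, 1.78 and 2.25 CPM in MN1, with 11.8 CPM in noTD. Cdkn1c, a CDK inhibitor of quiescent stem cells, rose by 3.32 (SE 0.50, adjusted p = 0.0105), at 10.0, 4.68 and 12.2 CPM in MN1 and 0.60, 1.39 and 0.67 CPM in MN1pQdel, with 1.23 CPM in noTD. The calls of Cdkn2a, Cdkn2b, Pcgf6, Mbd6, Mta1 and Mbd2 were each kept in 1 of 6 fits with a single library left out, that without MN1pQdel replicate 2, and that of Cdkn1c in 5, all but the one without MN1pQdel replicate 1 (adjusted p = 0.0554). Of the other 30 targets, 9 were at 0 in all libraries, all of them HOXB, HOXC or HOXD genes.

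Profiles over the 7 libraries were compared with 9867 other tested genes that averaged 5 CPM or more. Numbered predicted genes, Rik clones, clone-like or accession-like names and names opening with a digit were left out. By the root mean square difference of centred log2 CPM, the genes most like Ezh1 were Ndfip1 (0.038), Usp32 (0.050) and Pacs2 (0.051). For Ezh2 they were Srp68 (0.034), Dyrk2 (0.038) and Ptges3 (0.040). Ndfip1, for example, ran from 49.95 to 58.97 CPM in MN1 and 71.1 to 97.3 CPM in MN1pQdel, with MN1pQdel replicate 2 the lowest of its group as for Ezh1.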

How the data were processed

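For 7 poly(A) libraries (paired reads) the authors deposited estimated counts by gene symbol, not normalised, of which 32.5% were not whole (tolerance 1e-06). The tools kallisto and DESeq2 and the build GRCm38 were used, per the submitters' processing notes. Versions, index and strand setting are unstated there, so reads of antisense neighbours (8 members overlap one on the opposite strand) cannot be told apart. Counts were rounded. Genes passing filterByExpr were tested with edgeR 4.0.16 (quasi-likelihood, TMM, R 4.3.3; DESeq2 1.42.0 as an alternative), 3 MN1 against 3 MN1pQdel libraries, with Benjamini-Hochberg adjustment over all 14808 genes and a threshold of 0.05. CPM were TMM-scaled over 7 libraries; log2 CPM used a prior count of 2. Rows with symbols turned into dates (26) stayed in and are not named. The code was tested on simulated counts. Coordinates are from GENCODE M21, promoter sequences from RefSeq GRCm38.p6 (10 of 10 members matched).

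The members and lists were chosen with earlier results of these data known. Named were all members, up to 5 passing genes of each pathway list or the most abundant where none passed, Phf1, Kdm6a, Kdm6b and Bmi1, and the 3 genes most like Ezh1 and Ezh2. Of the stem and progenitor markers, the passing genes, Kit and Gata2 are also named. Ezhip matched no row and is not analysed here. The check of pairing correlated deviations from the group mean over all genes: same-numbered libraries gave 0.368, 0.259 and 0.320 and others -0.282 to -0.0602. Deviations cancel within a group, so positive values for some pairs force negative ones for others, and the negative range adds no independent support. What a number stands for is unlabelled, so the pairing rests on these values. Libraries of a group differed far beyond sampling noise (chi-square per gene 43.2 to 352). The alternatives were DESeq2, library totals, no filter, all groups in the fit, the block, each library left out, and both libraries numbered 2 left out.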

Additional observations from a re-analysis of the deposited data

How the results depend on the processing

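Of the 120 alternative fits of single members, 84 kept direction and side of the threshold, 21 gained a call, 14 lost one and 1 turned (Eed with library totals, 0.0067); Kdm6a also turned with library totals (0.12). Library totals moved the median of all genes to 0.19, so directions of small differences are relative to TMM. Members higher in MN1 numbered 2 with DESeq2 (Ezh2 and Rbbp7), 3 with library totals, 3 with the replicate block, 6 without both libraries numbered 2 and 0 to 7 with single libraries left out; members lower numbered 0 with library totals, 0 with no filter and 0 to 2 with single libraries left out. The block changed no other member's call than those of Ezh2, Rbbp4 and Rbbp7. Genes called higher over the whole table numbered 901 in the group-only fit, 1906 with DESeq2, 1847 with library totals, 2022 with the block, 2630 without both libraries numbered 2 and 95 to 3146 with single libraries left out, and genes called lower 1643 in the group-only fit, 2445 with DESeq2, 1140 with library totals, 2523 with the block, 2617 without that pair and 378 to 3248 with single libraries left out. In the lists the block gave 6 higher and 1 lower PRC1 genes, 2 lower demethylase and PR-DUB genes, 6 higher and 2 lower genes of the RBBP4 or RBBP7 complexes and 9 higher replication genes. Without MN1pQdel replicate 2, 2 other PRC2 partners were lower, PRC1 had 5 higher and 2 lower, demethylases and PR-DUB 2 and 2, the RBBP4 or RBBP7 complexes 7 and 3 and replication 19 higher; these list alternatives were chosen after seeing the data. The difference in log2 Ezh2 over Ezh1 was 0.94 to 1.38 when each library was omitted, and was 1.11 by paired differences. Members past 2-fold against noTD in MN1 numbered 2 with library totals and 1 to 2 with single libraries left out. With the union of exons 6 and with the longest transcript 5 of 10 members kept their rank by level per length. The members had at least 545 counts per library; what limited the calls was not tested.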
